A study of Mus musculus with 18 samples.

Results

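Cd4, Cd8a and Cd8b1 encode the coreceptors of the T cell receptor, and they are described here by the microRNAs (miRNAs) found ligated to their transcripts in mouse thymocytes. All chimeric reads on the transcribed strand of the 3 gene spans were taken, which gave 6671 of the 1190995 chimeric reads in 12 libraries. The 3 genes belonged to 15879 genes with at least 1 read. Cd4 was chosen by its read counts in earlier results of the same data, which were high in the wild type and low in knockout Ago2 IP libraries, so its values are given as a description without a test. The Cd8 genes were included as its partner coreceptors.

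The series profiled miRNA targets in total thymocytes of mice aged 6 weeks by miR-eCLIP, in which ultraviolet light of 254 nm fixes Argonaute 2 (Ago2) to RNA and a ligation then joins the bound miRNA to its target. A chimeric read therefore names a miRNA and a position in a target. Each of 4 groups had 3 libraries, and 6 input samples were not analysed here. The wild-type group was C57BL/6, and the knockout was B6.Mirc14tm1.1Ankr, which carries a germline deletion of Mir181a-1 and Mir181b-1. Each genotype was assayed by an Ago2 IP and by a protocol that further enriched miR-181-5p chimeras, called enriched here. The labels do not say whether the libraries of a group came from separate animals, so p-values measure the spread between these samples, which may be technical.

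CD4 binds MHC class II and CD8 binds MHC class I, and both bring the kinase Lck to the T cell receptor. Most thymocytes carry both coreceptors at once, as double-positive cells, before they settle on one lineage. CD8 on these cells is a dimer of an alpha chain, from Cd8a, and a beta chain, from Cd8b1. miR-181a is abundant in double-positive thymocytes and is known for raising their sensitivity to T cell receptor signals. A miRNA guides Ago2 to a target mainly by its seed, bases 2 to 8, while the bases after the seed can add pairing.

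The miRNAs on which the results turn are shown with the seed in capitals, from RefSeq on GRCm38.p6, written 5′ to 3′. The 4 members of the miR-181 family share one seed, and the lower-case bases after it are what sets them apart.
miR-181a-5p: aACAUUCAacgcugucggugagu
miR-181b-5p: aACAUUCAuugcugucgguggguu
miR-181c-5p: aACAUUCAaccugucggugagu
miR-181d-5p: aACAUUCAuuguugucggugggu
miR-142a-3p: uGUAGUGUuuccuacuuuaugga
let-7f-5p: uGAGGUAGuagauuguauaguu
let-7a-5p: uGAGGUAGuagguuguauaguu

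Counted from the 5′ end of the miRNA, miR-181a and miR-181b differ by A9U, C10U and A21G over the length they share. miR-181b and miR-181d are alike over the first 11 bases and differ by C12U. miR-181a and miR-181c are alike over the first 10 bases. The family therefore falls into a pair with A at position 9, a and c, and a pair with U there, b and d. The RefSeq table holds 2 hairpins each for miR-181a and miR-181b and 1 each for miR-181c and miR-181d, so that the knockout keeps 1 source of a and b and loses none of c and d.

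The libraries differed strongly in depth, from 43983 to 117849 reads in the Ago2 IP and from 194628 to 293149 in the wild-type enriched group. Knockout enriched libraries held only 6832 to 19264 reads, and 3 reads there corresponded to between 156 and 439 reads per 1000000 chimeric reads of the library (rpm), the scale of all levels below. The miR-181 family supplied 31.1% ± 1.09 of all chimeras in the Ago2 IP from wild-type cells and 1.38% ± 0.0595 in that from knockout cells (SD, n = 3). After enrichment these shares were 99.0% ± 0.207 and 71.9% ± 1.24. A chi-square test did not separate knockout enriched libraries 2 and 3 beyond sampling noise over 147 genes (p = 0.201), while it separated the other pairs of replicates (p of at most 0.02). Libraries 2 and 3 were kept as separate samples, and fold changes with both counted as 1 sample are given beside the fits that use them. All 9 T lineage marker genes had reads, summing to 5288 and 5390 rpm in the wild-type and knockout Ago2 IP. Rag1 and Tcf7 supplied 669 and 251 of the 1221 wild-type reads and 432 and 293 of the 973 knockout reads. The 4 markers of thymic epithelium had no reads, and the markers of B cells, myeloid cells and red cells each summed to at most 43.3 rpm per group. Such sums count chimeras and not expression, so they do not measure cell content.

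Cd4 lies on chr6:124864693-124888247, minus strand, and carried 4205 reads, of which 94.3% named a miR-181 family member. In the wild-type Ago2 IP the gene had 2367, 2070 and 1523 rpm, from 279, 143 and 67 reads. In the knockout Ago2 IP it had 724, 636 and 672 rpm, from 44, 43 and 35 reads. Every knockout library was below every wild-type library, and the group means were 1987 ± 428 and 677 ± 44.3 rpm (SD, n = 3). The edgeR log2 fold change of knockout against wild type was -1.63 (SE 0.17), or -1.22 with identical reads counted once.

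The miRNAs on Cd4 showed which reads made up that difference. miR-181 accounted for 78.9%, 73.4% and 68.7% of the gene's Ago2 IP reads for the wild type and for 15.9%, 18.6% and 25.7% for the knockout. Chimeras with all other miRNAs stood at 501, 550 and 477 rpm with wild-type and 609, 517 and 499 with knockout Ago2 IP, and these ranges overlapped. Because the knockout libraries lack most miR-181 reads, the same chimeras were also scaled to the reads of other miRNAs. They then came to 739 ± 49.7 rpm of other-miRNA reads for the wild type and 549 ± 59.2 for the knockout, without overlap between the groups, and a fit on these reads alone gave a log2 fold change of -0.42 (SE 0.22).

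Among the 1027 genes with at least 50 wild-type Ago2 IP reads, 20 had a higher miR-181 share than Cd4. As Cd4 was chosen by reads that were high in the wild type and low in the knockout, a high rank is partly built in. The median share of these genes was 28.6%, with 10% of them below 15.4% and 10% above 47.6%. Cd8a at 36.0% and Cd8b1 at 39.6% of pooled reads sat between these bounds, with 283 and 201 genes above them. A share of a gene's reads does not measure how much of its RNA is bound.

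Cd8a, on chr6:71373427-71379171, plus strand, carried 1854 reads, 81.2% of them with miR-181. It had 1349, 1260 and 1228 rpm in the wild-type Ago2 IP and 855, 724 and 614 in the knockout. The groups did not overlap, and their means were 1279 ± 63.0 and 731 ± 121 rpm (SD, n = 3). Cd8a fell in the knockout, with a log2 fold change of -0.84 (edgeR SE 0.17, adjusted p = 0.000291), and it stayed past the threshold in all 13 alternative fits (adjusted p between 8.2e-05 and 0.0127). In this comparison 10.3% of 1573 genes tested were called, 6.99% lower and 3.31% higher. Of the pair of Cd8 genes, Cd8a was called lower and Cd8b1 was not called.

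Most of the difference at Cd8a, in rpm, lay in its miR-181 chimeras. They stood at 450 ± 124 rpm in wild-type and 15.9 ± 16.5 in knockout Ago2 IP libraries (SD, n = 3). Their share of the gene's reads was 34.6%, 44.8% and 25.9% for the wild type and 3.85%, 2.04% and 0% for the knockout, where the last library had none among 32 reads, which allows a share of up to 9.38%. This is a loss of 33.2 percentage points (two-sided exact permutation p = 0.1, the smallest that 3 against 3 libraries allow), where the share over all chimeric reads fell by 29.7 points.

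The other miRNAs on Cd8a had 829 ± 117 and 715 ± 104 rpm, which overlapped between genotypes. Scaled to all reads of other miRNAs, the libraries no longer overlapped, with 1263, 1006 and 1343 rpm of other-miRNA reads for the wild type and 834, 720 and 623 for the knockout. Fitted alone, these reads fell (log2 fold change -0.72, edgeR adjusted p = 0.0127) in a fit that called 33 of 1355 genes. In bulk thymocytes, fewer cells of a type and less RNA per cell cannot be told apart, and the level of Cd8a RNA was not measured in the libraries used here. The difference between the Cd4 and Cd8a patterns was not tested.

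Cd8b1, on chr6:71322788-71337492, plus strand, carried 612 reads, 74.8% of them with miR-181. It had 484, 507 and 432 rpm in the wild-type Ago2 IP and 477, 429 and 537 in the knockout. These values overlapped, and the log2 fold change was -0.035 (SE 0.22, edgeR adjusted p = 0.956). The reads were few, between 19 and 57 per library.

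In percentage points, the miR-181 share at Cd8b1 differed by about as much as that of the whole libraries, but it ended at an unlike level. The mean share over all chimeric reads went from 31.1% to 1.38%. At Cd8b1 it went from 37.5% to 6.94%, the latter from 6 miR-181 reads. miR-181 was 43.9%, 37.1% and 31.6% of its reads for the wild type and 6.90%, 10.3% and 3.57% for the knockout, a loss of 30.6 points (two-sided exact permutation p = 0.1, the smallest possible) against 29.7 over all chimeric reads. Other miRNAs stood at 271, 318 and 296 rpm with wild-type and 444, 384 and 518 with knockout cells. Scaled to the reads of other miRNAs the groups overlapped, at 429 ± 36.8 and 455 ± 68.1 rpm of other-miRNA reads, and the fit on these reads alone gave 0.097 (edgeR adjusted p = 0.941).

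**Figure D1:**
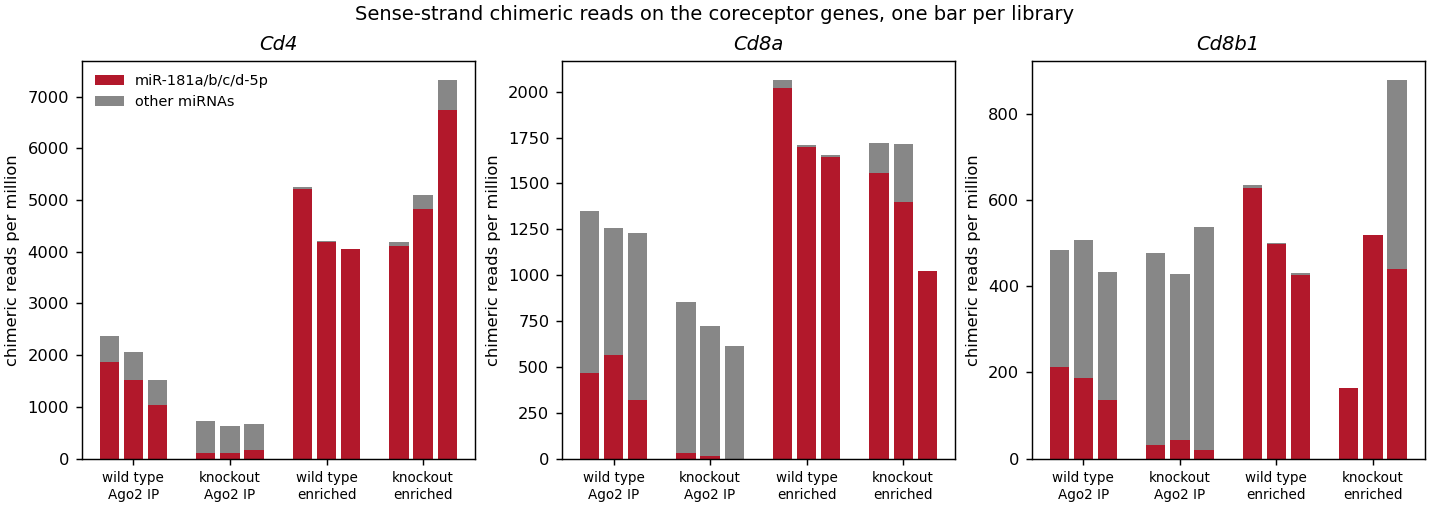
Bars show sense-strand chimeric rpm (vertical axis) on each gene in each of the 12 libraries, split into miR-181 family reads (red) and reads of other miRNAs (grey). In the Ago2 IP the red part at Cd4 went from 1478 ± 412 to 135 ± 32.4 rpm (SD, n = 3) between wild type and knockout, while the grey part was 509 ± 37.1 and 542 ± 58.7.

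Levels after enrichment are relative to libraries made up mostly of miR-181 chimeras, 99.0% of reads for the wild type and 71.9% for the knockout. They therefore do not compare the amount of miR-181 chimeras between genotypes. Cd4 had 3395 reads in wild-type and 199 in knockout enriched libraries, whose mean depths were 247093 and 12761 reads. Wild-type enriched libraries had 5243, 4213 and 4059 rpm at Cd4, and knockout enriched libraries had 4185, 5087 and 7319. The groups overlapped, and the log2 fold change was -0.029 (SE 0.18). This value depended on repeated reads: with identical reads counted once it was 0.999, and the wild-type enriched mean fell from 4505 ± 644 to 2297 ± 40.4 rpm. It was -0.67 without the low-count filter, 0.33 with library sizes alone and 0.18 without wild-type enriched replicate 1. Without knockout enriched replicate 2 or 3 it was -0.45 or -0.47, and with these libraries as 1 sample it was -0.23.

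At Cd8a the enriched libraries gave 2064, 1708 and 1654 rpm for the wild type and 1723, 1713 and 1025 for the knockout, from 21, 33 and 7 reads in the latter. The groups overlapped and the gene was not called (log2 fold change -0.45, SE 0.22, edgeR adjusted p = 0.303). It was called without the low-count filter (-1.08, edgeR adjusted p = 0.000176) and without knockout enriched replicate 2 (-1.01, edgeR adjusted p = 0.0286). Cd8b1 had 634, 501 and 432 rpm for the wild type, and 164, 519 and 878 in the knockout from 2, 10 and 6 reads. It was not called either (-0.41, SE 0.37, edgeR adjusted p = 0.640). With knockout enriched libraries 2 and 3 as 1 sample, edgeR gave -0.57 for both Cd8 genes (adjusted p = 0.209 and 0.495). In this comparison 4.64% of 2070 genes were called, 2.03% higher and 2.61% lower.

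Within the wild type, both Cd8 genes were higher after enrichment than in the Ago2 IP, relative to most genes, although Cd8b1 was at -0.075 with identical reads counted once. The log2 fold change was 0.87 for Cd8a (edgeR SE 0.15, adjusted p = 5.39e-06) and 0.52 for Cd8b1 (edgeR SE 0.19, adjusted p = 0.0248). In this comparison 35.1% of 3033 genes were called, 19.4% higher and 15.7% lower. The Cd8a value was 0.42 with library sizes alone and 0.43 with identical reads counted once, and its call was lost for chimeras of other miRNAs alone (0.84, edgeR adjusted p = 0.292). The Cd8b1 call did not hold without any 1 of the 3 Ago2 IP libraries (adjusted p = 0.0838, 0.0526 and 0.0741) or without enriched replicate 1 (adjusted p = 0.156, edgeR). It was also lost with library sizes alone (0.062) and with DESeq2 (adjusted p = 0.146). Cd4 had a log2 fold change of 1.53 (SE 0.15).

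Within the knockout, Cd4 had a log2 fold change of 3.10 (SE 0.19) between the enriched and the Ago2 IP libraries. Cd8a rose by 1.25 (SE 0.25, edgeR adjusted p = 5.74e-05), and Cd8b1 was not called (0.13, SE 0.40, edgeR adjusted p = 0.880). Of 799 genes tested, 21.2% were called, 15.5% higher and 5.63% lower. The Cd8a call was lost without the low-count filter (0.69, edgeR adjusted p = 0.245) and for chimeras of other miRNAs alone (-0.14, edgeR adjusted p = 0.970). With knockout enriched libraries 2 and 3 as 1 sample it held (1.32, edgeR adjusted p = 3.67e-06), Cd4 was at 3.12 and Cd8b1 at 0.18. These comparisons share libraries with those between genotypes, so they are not independent of them.

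Reads on each gene were joined into sites wherever the next position was no more than 20 nt away, and sites of at least 10 reads were numbered from the 5′ end of the gene. Cd4 had 14 such sites, Cd8a 18 and Cd8b1 8, which held 96.0%, 95.3% and 78.9% of the genes' reads. Of the 40 sites, 30 had mostly miR-181 reads, against 74.7% of 10812 such sites in all genes. Every knockout Ago2 IP library was below every wild-type one at 6 of the 40 sites and above at 0 of them, where the sites of all genes gave 11.5% and 4.54%, so the count of 6 is near the background. The 6 sites were Cd4 sites 8 and 9, Cd8a sites 5, 12 and 15, and Cd8b1 site 2. Cd8a sites 12 and 15 had 11 and 7 wild-type and 0 and 2 knockout Ago2 IP reads, too few to read as a loss. Whether a site lies in an exon, an intron or a UTR was not analysed here.

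**Figure D2:**
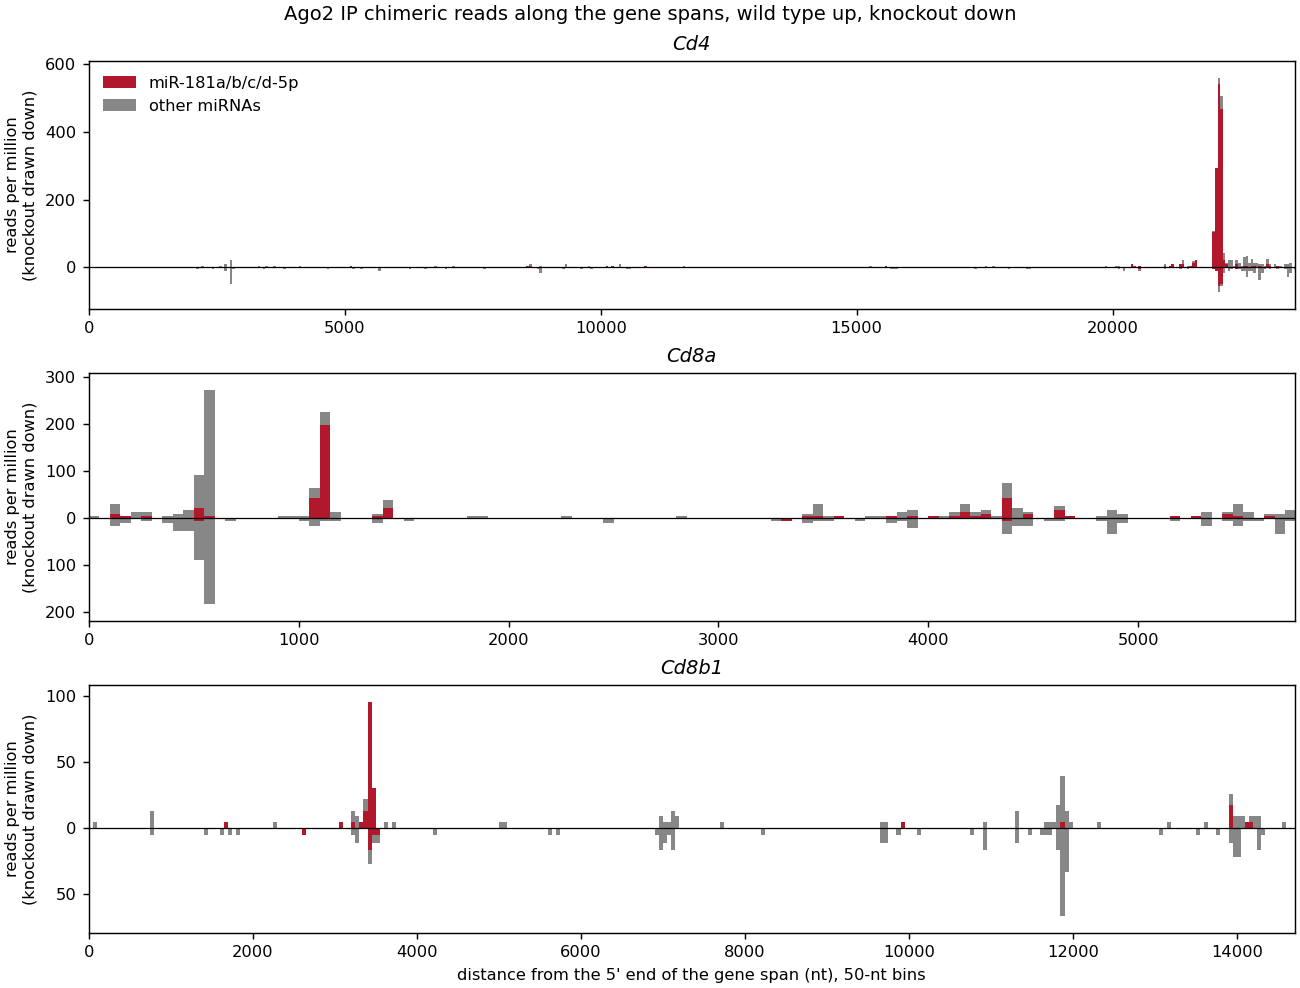
Pooled Ago2 IP rpm (vertical axis, wild type upward and knockout downward) are plotted in 50-nt bins against the distance from the 5′ end of each gene span in nt, red for miR-181 and grey for other miRNAs. Each gene has one main red peak that is small or missing in the knockout, near 22000 nt in Cd4, 1100 nt in Cd8a and 3400 nt in Cd8b1, and the grey peak near 550 nt in Cd8a is present in both genotypes.

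Cd4 site 9, chr6:124865882-124866288, held 3237 reads, 77.0% of the reads of Cd4, and 98.7% of them were miR-181. It lies between 21959 and 22365 nt from the 5′ end of the span of 23555 nt. The wild-type Ago2 IP gave 1824, 1448 and 1091 rpm there, and the knockout 115, 177 and 250. Among the reads were 197, 91 and 44 miR-181 reads for the wild type and 5, 8 and 9 for the knockout, so the site was low but not empty there. In the enriched libraries the site had 4220, 3199 and 3206 rpm for the wild type and 3857, 4309 and 5855 for the knockout, which overlapped.

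Outside site 9 the Cd4 sites were much smaller. Site 8, chr6:124866562-124866681, held 338 reads, 99.4% of them miR-181. The Ago2 IP gave 5, 1 and 3 reads there for the wild type and none for the knockout, where 3 reads would be 44.4 to 57.6 rpm. Its count in the Ago2 IP is thus too low to read as a loss, and 323 of its reads came from the wild-type enriched libraries. Site 10, chr6:124865425-124865846, was mixed, with 60.7% miR-181 reads, and had 170 ± 11.3 rpm in wild-type and 99.2 ± 70.8 in knockout Ago2 IP libraries (SD, n = 3), which overlapped by knockout replicate 1. Cd4 site 1, chr6:124885453-124885482, stood apart near the 5′ end of the gene, where all 17 reads named miR-142a-3p.

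Cd8a site 5, chr6:71374445-71374601, held 915 reads, 49.4% of the reads of Cd8a, of which 97.5% were miR-181. The wild-type Ago2 IP had 297, 376 and 227 rpm there, and the knockout 0, 73.9 and 19.2. The wild-type reads included 56 with miR-181, and the 6 knockout reads included none. After enrichment the knockout libraries showed it again, at 1149, 1142 and 732 rpm from 14, 22 and 5 reads, against 1341, 828 and 997 in the wild type. These enriched ranges overlapped.

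A second large site of Cd8a was led by another miRNA. Site 4, chr6:71373850-71373994, held 283 reads, of which 137 named miR-142a-3p, a miRNA of blood cells, and 103 named miR-181a. In the Ago2 IP, miR-142a-3p chimeras there came to 382, 203 and 387 rpm for the wild type and 296, 266 and 269 for the knockout, which overlapped. Scaled to the reads of other miRNAs they were 547, 293 and 571 rpm of other-miRNA reads for the wild type and 300.1, 270 and 273 for the knockout, and these overlapped too, by wild-type replicate 2. Over the whole gene, miR-142a-3p accounted for 120 of the 192 other-miRNA reads in wild-type and for 89 of 130 in knockout Ago2 IP libraries.

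Cd8b1 site 2, chr6:71326123-71326351, held 333 reads, 54.4% of those of Cd8b1, and 97.9% were miR-181. It had 161, 159 and 90.9 rpm in the wild-type Ago2 IP and 49.4, 59.1 and 38.4 in the knockout, from 34 and 9 reads. Enriched libraries had 450, 347 and 298 rpm for the wild type and 164, 363 and 439 for the knockout, the latter from 12 reads. Further towards the 3′ end, site 5, chr6:71334597-71334713, was a site of the let-7 family, whose members share the seed shown above for let-7f and let-7a. Of its 39 reads, 14 named let-7f and 6 let-7a, and 2 named miR-181. Its let-7 chimeras came to 56.9 ± 31.4 rpm in wild-type and 100.1 ± 56.4 in knockout Ago2 IP libraries (SD, n = 3, from 12 and 18 reads), which overlapped. Scaled to the reads of other miRNAs they were closer, at 83.0 ± 47.0 and 101.5 ± 57.2 rpm of other-miRNA reads.

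The largest site of each gene was held by a different mix of miR-181 family members. This comparison was chosen after the miRNA names at the sites had been seen, so it is a description with no test. At Cd4 site 9, miR-181b led with 2025 reads against 1077 of miR-181a, 85 of miR-181d and 7 of miR-181c. At Cd8b1 site 2 the order was the other way round, with 276 reads of miR-181a, 39 of b, 9 of c and 2 of d. Cd8a site 5 lay between, with 502 of a, 353 of b and 31 of d.

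In the wild-type enriched libraries, b and d together made up 62.9%, 59.5% and 68.6% of the miR-181 reads at Cd4 site 9, against 18.8% ± 1.53 of all miR-181 reads in those libraries. In the knockout enriched libraries they made up 93.6%, 85.5% and 97.5% of 47, 83 and 40 reads, against 32.3% ± 1.21 of all. The share at Cd4 site 9 was above that of the rest of the library in 12 of 12 libraries, by a mean of 52.6 points over the 6 enriched ones, and by 46.2 points with identical reads counted once. At Cd8a site 5 it was above in all 9 libraries with miR-181 reads there, by a mean of 29.6 points in the enriched ones, where the wild type had 41.9% ± 5.67 and the knockout 68.3% ± 15.1. At Cd8b1 site 2 it was below in 9 of 12 libraries, with 12.7% ± 4.48 in the wild-type enriched group. Knockout libraries held only 1 to 7 miR-181 reads there. The mean difference of -2.95 points over the enriched libraries was smaller than their spread (SD 12.4). With identical reads counted once it was 0.91 points, and 4 of the 6 enriched libraries were above.

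Among the 470 sites of all genes with at least 100 miR-181a and b reads in the wild-type enriched libraries, the median b share of a plus b was 9.03%, and 11 sites had a higher one than the 63.0% of Cd4 site 9. Cd8a site 5 had 40.9%, with 31 sites above it. Cd4 site 8, the neighbour of site 9, had 19.9%, and Cd8b1 site 2 had 11.6%. Counted once, identical reads left 215 sites with a median of 18.0%, and 4 of them exceeded the 54.5% of Cd4 site 9. Cd8a site 5 then had 42.8%, Cd4 site 8 had 32.4% and Cd8b1 site 2 had 23.1%.

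In the rarer pair, c and d, the d share at Cd4 site 9 and Cd8a site 5 was above that of all c and d reads. In the knockout enriched libraries, where c and d are a large part of the family, d made up 36.5% of all c and d reads. At Cd4 site 9 there were 44 reads of d and 3 of c, or 93.6% d (exact 95% interval 82.5% to 98.7%). At Cd8a site 5 there were 17 of d and 2 of c, or 89.5% (66.9% to 98.7%). At Cd8b1 site 2 there were 0 of d and 5 of c, which allows up to 52.2% of d. Knockout Ago2 IP replicate 2 had 1 read of d and 1 of c at that site. The intervals of Cd4 site 9 and Cd8a site 5 overlap, so no order between this pair is shown. By library, d made up 94.4%, 89.5% and 100% at Cd4 site 9, against 34.9%, 37.5% and 36.5% of all c and d reads. The intervals pool the reads of the 3 libraries and reflect counting error alone, as reads repeated at one position may stem from 1 molecule. As the sites were chosen after the names were seen, they are a description and no test against the 36.5%.

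**Figure D3:**
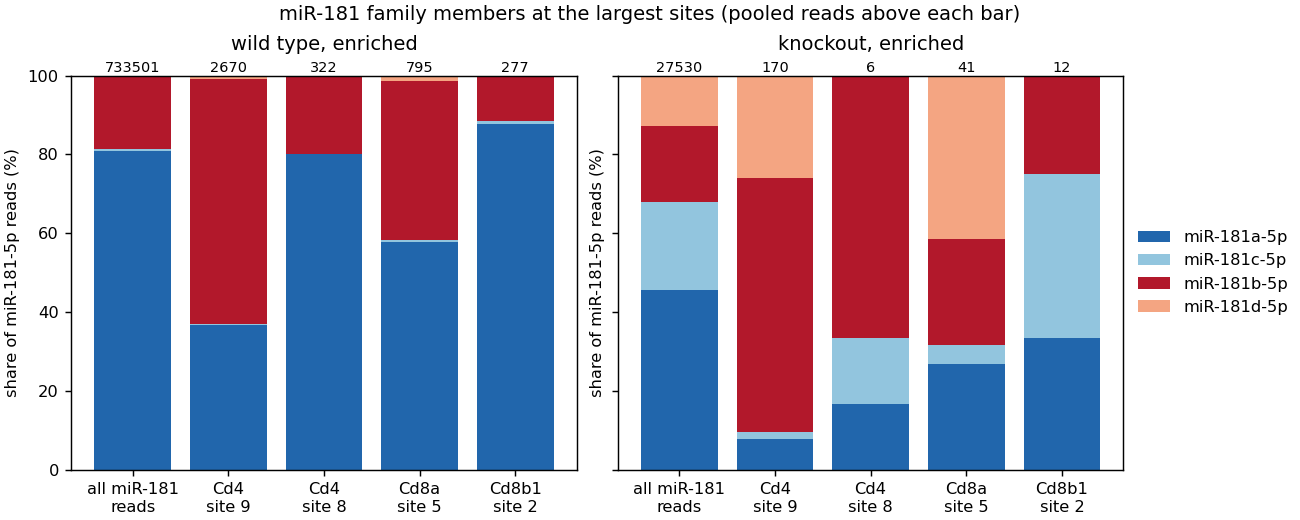
Stacked bars show the share in percent of miR-181a, c, b and d among the pooled miR-181-5p reads of all targets and of 4 coreceptor sites, in the wild-type (left) and knockout (right) enriched libraries, with the number of reads above each bar. At Cd4 site 9 miR-181b and d fill most of the bar in both genotypes, while at Cd8b1 site 2 miR-181a fills most of the wild-type bar and a and c most of the knockout bar, which rests on 12 reads.

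Cd4 site 9 itself was not uniform. The position that best separated a from b reads, found on these same reads and hence given without a test, divided it at 124866224. In the part upstream in the transcript, chr6:124866224-124866288, b and d made up 17.4%, 22.1% and 27.7% of miR-181 reads in the wild-type enriched libraries. In the part downstream, chr6:124865882-124866223, they made up 84.9%, 79.4% and 85.7%. The contrast was smaller with identical reads counted once, at 35.9%, 43.1% and 38.8% upstream and 59.8%, 61.0% and 64.4% downstream. Because the division was chosen on these reads, some contrast is built in. The wild-type Ago2 IP gave 23.0% ± 22.0 and 83.9% ± 6.82 over all reads (SD, n = 3). In the knockout enriched libraries the upstream part was also mostly b and d in 2 of 3 libraries, at 85.7%, 42.9% and 75.0% of 7, 14 and 4 reads, against 96.4% ± 3.14 downstream.

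The most frequent single position of the upstream part, 124866261, had 186 reads, of which 133 were miR-181a and 51 miR-181b. The most frequent one of the downstream part, 124866169, had 165 reads, of which 6 were miR-181a and 151 miR-181b. The upstream part stood at 255 ± 125 rpm in the wild-type Ago2 IP and had 2 reads in the knockout. The downstream part stood at 1199 ± 254 and 171 ± 70.1 rpm. In the enriched libraries the upstream part had 1143 ± 217 rpm for the wild type and 629 ± 84.9 for the knockout, while the downstream part had 2399 ± 396 and 4045 ± 1071. The downstream part held most of the reads of the site in all 4 groups.

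**Figure D4:**
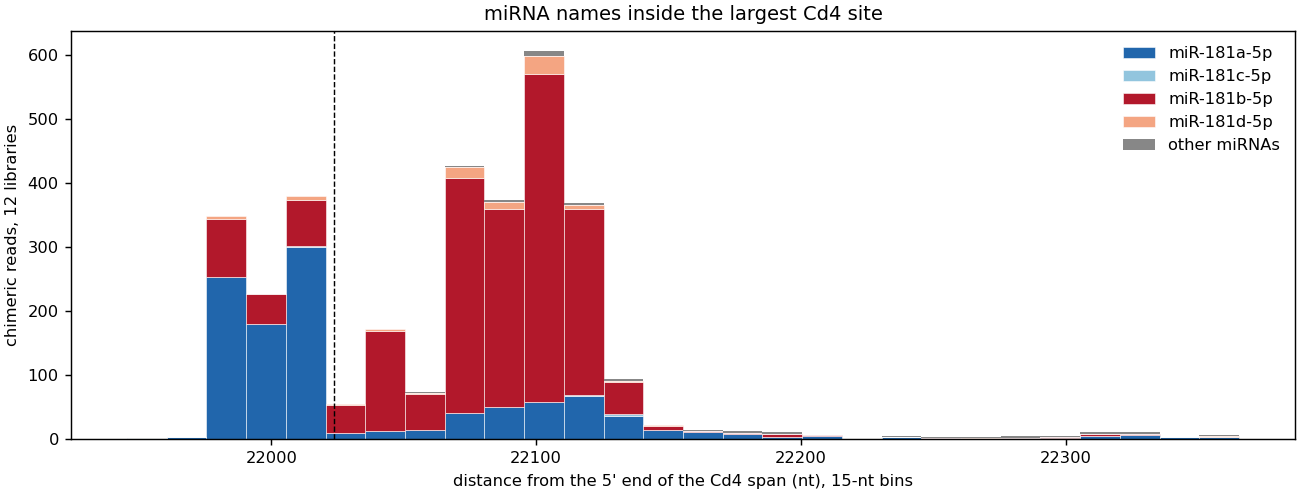
Reads of the 12 libraries (vertical axis) at Cd4 site 9 are plotted in 15-nt bins against the distance from the 5′ end of the Cd4 span in nt, coloured by miRNA, with the dividing position as a dashed line. miR-181a (blue) fills most of the bins to the left of the line and miR-181b (red) most of those to the right, up to about 22140 nt.

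A list of 28 genes that control or act with the coreceptors was set beside them, chosen with earlier results known. In the Ago2 IP, 20 of them could be tested between genotypes, of which 3 rose in the knockout and 0 fell, against 3.31% and 6.99% of all genes. The risers were Tcf7, a transcription factor of the T lineage (log2 fold change 0.54, edgeR adjusted p = 0.0115), Tox, a factor required for the CD4 lineage (0.41, edgeR adjusted p = 0.0145), and Socs1, an inhibitor of cytokine signalling (0.73, edgeR adjusted p = 0.0492). These values use all chimeras, and the knockout libraries lack most miR-181 reads, which can raise the relative level of genes with few of them. The list was not compared on chimeras of other miRNAs alone, where 33 of 1355 genes were called in place of 162. Whether the risers differ there was not tested. The list's median was -0.058, against 0.0097 for all genes. Satb1, a chromatin organiser with the most reads of the list, had 1310 wild-type and 992 knockout reads and was not called (-0.10, edgeR adjusted p = 0.582). In the enriched comparison between genotypes 0 of 20 were called by edgeR, against 4.64% of all 2070 genes tested. For enriched against Ago2 IP in the wild type, 3 of 23 rose and 5 fell, against 19.4% and 15.7% of all genes. In the knockout, 0 of 15 rose and 2 fell, against 15.5% and 5.63% of all genes. Zbtb7b and Runx3, which direct the choice between the CD4 and CD8 lineages, had 4 and 14 wild-type and 6 and 7 knockout Ago2 IP reads, too few to test.

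Across the 12 libraries and 1999 genes, the levels most like those of Cd4 (Pearson r of TMM-scaled log2 counts) were those of Ech1 (r = 0.98), Zfand3 (0.98) and Usp9x (0.98). For Cd8a they were Kif21b (0.96), Sfpq (0.95) and Cmss1 (0.94), and for Cd8b1 they included Dhx15 (0.93) and Whrn (0.93). The libraries fall into 4 groups that differ in depth and miR-181 content, which all genes share, so these values describe likeness only.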

How the data were processed

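The members and the gene lists were chosen with earlier results of these data known. The deposited files list counts: each line gives the position, strand and miRNA of 1 chimeric read, as found in the files, with no scaling and no pooling of replicates. Per the submitters' processing notes, the builds were mm10 and GRCm38.p6, and the tools were Bowtie2 2.4.5, SAMtools 1.11, STAR 2.7.10, UMI-tools 1.1.1 and bedtools 2.30.0, with no role given. Libraries were made by a company from 20 µg of RNA each and sequenced in pairs of 150 nt, per the labels' protocols.

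Reads were placed in RefSeq gene spans (GRCm38.p6) on the gene's strand, taken from RefSeq sequence tables or, for Cd4 and Cd8b1, from the more frequent read strand. Where spans overlapped, hairpins came before protein-coding genes and these before other genes, reads with several candidates of one class stayed unnamed, and 92.8% of reads were named. Counts per gene over all genes were tested with edgeR 4.0.16 in R 4.3.3 (quasi-likelihood F test, TMM, filterByExpr with a minimum count of 10, Benjamini-Hochberg adjusted p of at most 0.05), with only the 6 libraries of each comparison. The standard error is the log2 fold change divided by the square root of F. The fits were tested on simulated data. Fits with DESeq2 1.42.0 were among the alternatives, and exact tests used scipy 1.17.1 (Python 3.11.15). Same-numbered libraries correlated between -0.11 and 0.11 in their deviations from the group means and were not treated as pairs. The text names the 3 genes, their sites of at least 10 reads, their main miRNAs, the 3 genes most like each (1 of which is not reported here), and listed regulators that were called between genotypes in the Ago2 IP or had most reads. Zbtb7b and Runx3 were added after their values were seen. Depth ranged from 6832 to 293149 reads, and intervals and floors (3 reads) cover counting error only.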

Additional observations from a re-analysis of the deposited data

Results flagged for a closer look

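Sense-strand reads were also seen in the 2000 nt on either side of the gene spans, which no comparison above uses. Past the 3′ end of Cd8b1 there were 25 reads, 9 of them with miR-181, with 7, 7, 8 and 3 in the wild-type Ago2 IP, knockout Ago2 IP, wild-type enriched and knockout enriched groups. Before the 5′ end of Cd8a there were 8 reads and past its 3′ end 4. Past the 3′ end of Cd4 there were 4, and none before its 5′ end or before that of Cd8b1. Each count is above the 3 reads that a count of 0 allows, and whether these reads belong to the coreceptor transcripts was not tested.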

How the results depend on the processing

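Of 158 log2 fold changes of the members under the alternatives, 140 kept their sign and 18 changed it, 3 of these for Cd4 between genotypes after enrichment. Of the 105 for the Cd8 genes, 10 lost and 2 gained a call. The number of genes called between genotypes in the Ago2 IP (162) was 58 with DESeq2 and 33 for chimeras of other miRNAs alone, and leaving out 1 library gave 115 to 152. In the enriched libraries (96) it was 252 without the low-count filter and 2 of 8 tested for other miRNAs alone, which left no coreceptor gene to test, and 63 to 105 leaving out 1 library, 63 without wild-type replicate 2. For enriched against Ago2 IP in the wild type (1065) it was 613 with DESeq2, 13 for other miRNAs alone and 802 to 1089 leaving out 1 library, and in the knockout (169) 15 for other miRNAs alone and 137 to 199. With library sizes alone in place of TMM, the median log2 fold change of all genes moved to 0.24 between genotypes after enrichment and to -0.47 and -0.38 for the enrichment in wild-type and knockout libraries. The split of higher and lower calls then was 81 and 25 against 42 and 54, and 340 and 1165 against 588 and 477. In the knockout enrichment it was 109 and 138 against 124 and 45.

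Cd8b1 changed sign between genotypes in the Ago2 IP with library sizes (0.013), identical reads counted once (0.048), other miRNAs alone (0.097) and on leaving out 1 library (-0.11 to 0.030). Counting once also turned Cd8a (0.047) and Cd8b1 (0.14) between genotypes after enrichment, and Cd8b1 (-0.075) for the enrichment in the wild type. For the enrichment in the knockout, Cd8a was -0.14 for other miRNAs alone, and Cd8b1 was -0.16 with library sizes, -0.43 without the filter, -0.84 for other miRNAs alone and -0.17 to 0.51 leaving out 1 library. The cause was not tested. Counted once, the change in miR-181 share at Cd4 was -46.5 points. With all reads it was -53.6 points, and -56.4 to -51.0 on leaving out 1 library. The difference in b and d share at Cd8b1 site 2, counted once, was 0.91 points. Levels counted once were 2297 rpm for Cd4 in the wild-type enriched group. For Cd8a they were 1130 and 1528 in the wild-type Ago2 IP and enriched groups. Joining within 50 nt gave 7 sites in Cd8a.

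With the replicate number as a block, 139, 91, 1202 and 168 genes were called in the 4 comparisons, and the block changed no call of a Cd8 gene. The samples share only a number. Knockout enriched libraries held 2 to 33 reads per Cd8 gene, which limits those comparisons.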
